A study of Mus musculus with 10 samples.

Results

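Rock2 encodes a serine/threonine kinase that is switched on by the small GTPase RhoA. Its intronic 3' ends were followed in cultured mouse mammary tumour cells by 3'-end sequencing of poly(A)+ RNA. Every entry for Rock2 in the authors' deposited tables of intronic polyadenylation (IPA) sites was taken. These were 7 of 2311 entries, covering 6 of 2074 regions in 1 of 1452 genes, and after overlapping regions were joined they formed 4 sites. The entries were selected on a measured value, the authors' adjusted p of at most 0.1 for a difference in usage between 2 groups, so the differences that brought Rock2 into them are given as a description and were not tested again. There were 10 libraries in 5 groups of 2. The first was 4T1 treated with a morpholino antisense oligonucleotide to U1 and a delivery reagent (4T1-U1-ASO), and the second was 4T1 itself, which the design calls mock-transfected and whose labels state no treatment. The others were the lines 4T07, 67NR and 168FARN with no treatment on their labels. All are described as mouse mammary tumour lines, with 4T1 and 4T07 metastatic and 67NR and 168FARN non-metastatic. The labels do not tell if the libraries of 1 group stem from different cultures. The p-values below therefore rest on a spread that may be technical. Each group is a single line, so line and metastatic ability cannot be told apart. The 4T1-U1-ASO and 4T1 groups are the same line and differ by the oligonucleotide, and since the design calls 4T1 mock-transfected, 4T1 may differ from the other lines by that step as well.

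ROCK2 phosphorylates regulators of the myosin light chain and the LIM kinases, and so raises actomyosin contraction and stabilises actin filaments. Its kinase domain lies in the N-terminal part of the protein, and the coiled coil with the RhoA-binding region and the PH domain lie further downstream. A transcript that ends at an intronic poly(A) site lacks the exons beyond it. The U1 small nuclear RNA recognises 5' splice sites and is known to keep RNA polymerase II transcripts from ending early inside introns, an activity called telescripting. Blocking U1 with an antisense oligonucleotide is known to raise intronic ends in many genes.

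The 4 Rock2 sites lie on the plus strand of chromosome 12 in mm9, and the tables call each of them intronic. Site 1 runs from 16929810 to 16929888, site 2 from 16933741 to 16933831, site 3 from 16946847 to 16947344, and site 4 from 16972272 to 16972461. In the table of the U1 block, site 1 ends earlier, at 16929853, and site 3 at 16947083. The last-exon reads of both 4T1-U1-ASO libraries, 843 and 887, equal the sum of 3 adjacent peaks that lie between 16991468 and 16994639. Site 1 ends 64.8 kb, and site 2 60.8 kb, upstream of the end of that last exon. Which introns hold the sites was not analysed here, because no annotation of mm9 was used.

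Usage of a site is its reads as a percentage of the reads at the site and at the last exon of the same library, so library scaling cancels. By group mean, usage at site 1 was lowest under the U1 block, intermediate in the metastatic lines and highest in the non-metastatic lines. The authors listed no Rock2 site for 4T1 against 67NR or for 4T1 against 168FARN. The 4T1 values come from the comparison with the U1 block, and 4T1 was not tested against the non-metastatic lines here. Site 1 usage was 3.88% and 3.80% in the 4T1-U1-ASO libraries, against 71.9% and 41.2% in the 4T1 libraries. It was 22.0% and 32.9% in 4T07, against 90.4% and 76.4% in 67NR and 81.2% and 85.6% in 168FARN. The 4T1-U1-ASO libraries lay below every other library, and both 4T07 libraries lay below those of 4T1, 67NR and 168FARN. The group means were 3.84% ± 0.057 in 4T1-U1-ASO, 56.6% ± 21.7 in 4T1, 27.5% ± 7.66 in 4T07, 83.4% ± 9.88 in 67NR and 83.4% ± 3.13 in 168FARN (SD, n = 2 each). From low to high the order was therefore 4T1-U1-ASO, 4T07, 4T1 and then 168FARN and 67NR, whose libraries overlapped. In this order 4T07 and 4T1 did not overlap, but the 4T1 libraries lay further from each other than from the nearest 4T07 library. Exact (Clopper-Pearson) 95% intervals of single libraries cover counting error only and take each read as independent. They ran from 58.5% to 83.0% and from 32.2% to 50.6% in the 4T1 libraries. If reads are independent, those 2 libraries thus stood apart by more than counting error. The reads behind a library ranged from 57 in 4T1 replicate 1 to 922 in 4T1-U1-ASO replicate 2.

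**Figure D1:**
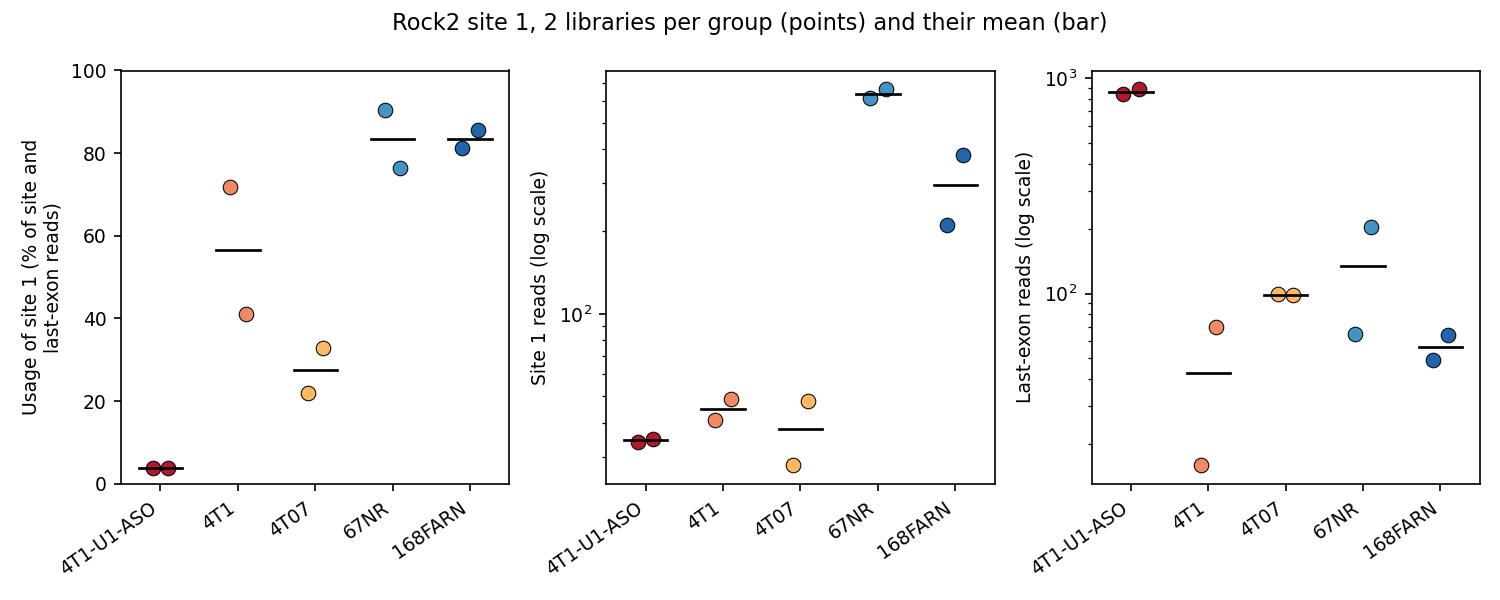
Usage of Rock2 site 1 in percent (left), reads at site 1 (middle, log scale) and reads at the last exon (right, log scale), with 1 point per library and a bar at the mean of the 2 libraries of each group. Usage is under 4% in the 4T1-U1-ASO libraries, where last-exon reads are highest (843 and 887), and over 76% in the 67NR and 168FARN libraries, where site 1 reads are highest (211 to 662).

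Different reads lay behind the low usage in 4T07 and under the U1 block. In 4T07, site 1 had 28 and 48 reads, against 613 and 662 reads in 67NR and 211 and 380 reads in 168FARN. The last exon had 99 and 98 reads in 4T07, against 65 and 204 reads in 67NR and 49 and 64 reads in 168FARN. The site 1 reads of 4T07 thus lay far below those of both non-metastatic lines, while its last-exon reads lay inside the range of 67NR and above that of 168FARN. In the authors' deposited table the log2 change of site 1 relative to the last exon in 4T07 was -2.67 (SE 0.49) against 67NR, with the deposited sign turned so that 4T07 comes first, and -3.20 (SE 0.41) against 168FARN. The site part of the change was -3.90 and -2.90, and the last-exon part -0.24 and 0.88, in the same deposited tables. Among the listed sites of each of the authors' deposited tables, site 1 stood 22nd of 214 from the most negative end against 67NR and 8th of 329 against 168FARN. Both tables share the 4T07 libraries. In bulk RNA, fewer cells that use a site and less use per cell cannot be told apart.

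Under the U1 block the last exon was far higher and the site itself somewhat lower. Site 1 had 34 and 35 reads in 4T1-U1-ASO, against 41 and 49 reads in 4T1. The last exon had 843 and 887 reads in 4T1-U1-ASO, against 16 and 70 reads in 4T1. The last exon of both 4T1-U1-ASO libraries was thus above that of both 4T1 libraries, and site 1 was below. The authors' deposited log2 change of site 1 relative to the last exon was -3.98 (SE 0.59), the 3rd most negative of 1561 listed sites, and its adjusted p is listed as 0.000 at 3 decimals. Its site part was -0.97 and its last-exon part 3.86 in that deposited table. Scaled instead by the read totals of the peak lists, site 1 in 4T1-U1-ASO was 0.774 times its mean in 4T1, a smaller difference than on the authors' scale. Of those 1561 sites, 87.6% were higher under the block, so Rock2 site 1 belonged to the minority with the opposite sign.

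Site 2 was listed only in 4T07 against 168FARN, where it had 4 and 4 reads in 4T07, against 17 and 15 reads in 168FARN. Mean usage of site 2 came to 3.90% ± 0.027 in 4T07, against 22.4% ± 4.79 in 168FARN (SD, n = 2 each). The groups did not overlap. The authors' deposited log2 change was -2.04 (SE 0.51) with an adjusted p of 0.003. Taken from peak-list reads, usage of site 2 in 168FARN was 72.5%, well above the value from the table, with only 13 and 2 last-exon reads in the lists. The peak lists also hold site 2 in cells that the tables do not list it for, with 61 and 69 reads in 4T1-U1-ASO, against 3 and 0 in 4T1. Scaled to the total reads of each list on shared chromosomes (RPM), these were 52.4 and 58.5 in 4T1-U1-ASO, against 2.72 and 0 in 4T1. Site 2 therefore had more reads than site 1 in both 4T1-U1-ASO libraries, and fewer than site 1 in both 4T1 libraries. A listed 0 in a peak list means that no peak was listed there.

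Site 3 had at most 12 reads in every library. It had 1 and 4 reads in 4T07, against 12 and 9 reads in 168FARN, with a mean usage of 2.46% ± 2.07 in 4T07, against 16% ± 5.19 in 168FARN (SD, n = 2 each). The authors' deposited log2 change in 4T07 against 168FARN was -1.92 (SE 0.54), with an adjusted p of 0.013. Under the U1 block it had 5 and 6 reads, and it had 5 and 6 reads in 4T1 as well. Its usage was 0.631% ± 0.058 in 4T1-U1-ASO and 15.9% ± 11.3 in 4T1 (SD, n = 2 each). The deposited log2 change had a site part of -0.59 and a last-exon part of 3.86. From peak-list reads, usage of site 3 was 40.9% in 4T1 and 64.9% in 168FARN, in both over 1.5 times the value from the tables. The authors' deposited log2 change under the block was -3.22 (SE 0.71), the 11th most negative of the 1561 listed sites.

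Site 4 was listed only under the U1 block, where it was the one Rock2 site with higher usage. It had 133 and 171 reads in 4T1-U1-ASO, against 0 and 2 reads in 4T1. Its usage was 14.9% ± 1.79 in 4T1-U1-ASO and 1.39% ± 1.96 in 4T1 (SD, n = 2 each). The 0 of 16 reads in 4T1 replicate 1 allows a usage of up to 18.75% by the limit of 3 counts, and of up to 20.6% by the exact 95% interval, so the usage of that library is poorly bounded, while replicate 2 gave 2.78%. The authors' deposited log2 change was 1.83 (SE 0.74), with an adjusted p of 0.087, which is close to the limit of 0.1. The site part of it was 6.86 and the last-exon part 3.86. It stood 799th from the most positive end of the 1561 listed sites. No peak overlaps site 4 in any of the 10 deposited peak lists, so its usage from list reads would be 0% in 4T1-U1-ASO, against the 14.9% from the table.

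The rise at the Rock2 last exon under the block was set beside that of the other genes of the same table. In the deposited normalized values it was 672.54 and 699.34 in 4T1-U1-ASO, against 22.17 and 72.40 in 4T1. The deposited log2 change of 3.86 ranked 2nd of 1129 genes with a listed site and a finite last-exon change. The median over those genes was -0.66, and 24.5% of them had a positive value. The paralog Rock1, named with its value known, ranked 8th, with a deposited log2 change of 2.87 on 138 and 110 last-exon reads in 4T1-U1-ASO, against 9 and 14 in 4T1. These values come from the comparison that brought Rock2 into the table, and no test was made of them. The 2 Rock2 last-exon values of 4T1 differed by 1.66 on the log2 scale, replicate 2 over replicate 1, where 1.38% of 1086 genes with at least 50 reads differed by more and the median was -0.11.

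**Figure D2:**
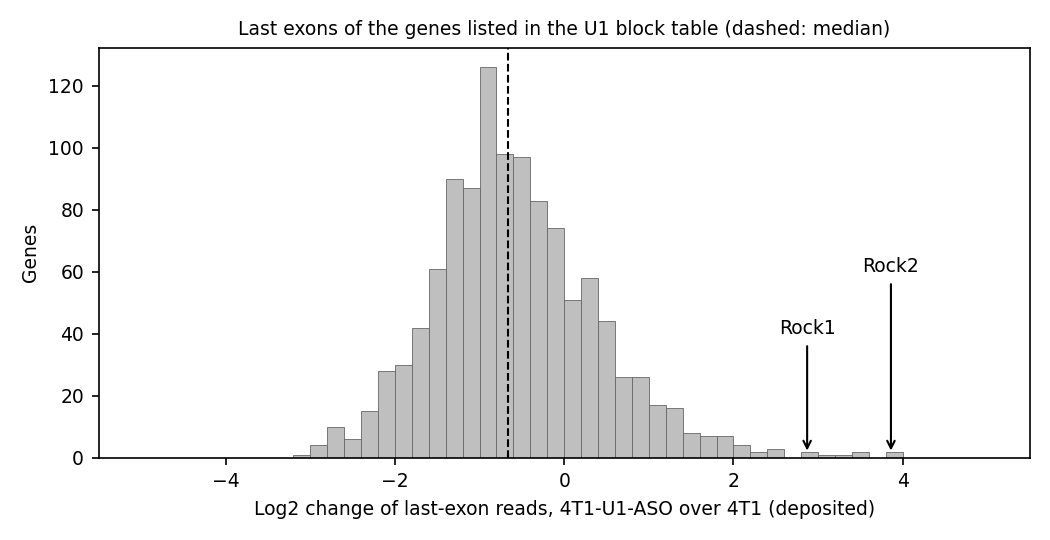
Histogram of the deposited log2 change of last-exon reads, 4T1-U1-ASO over 4T1, for the 1129 genes with a finite value in the table of the U1 block, with the median of -0.66 dashed. Rock2 at 3.86 and Rock1 at 2.87 lie in the sparse upper tail.

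The peak lists give reads for the whole stretch between site 1 and the last exon, whether or not a peak is in the tables. Besides the listed sites there were 54 merged plus-strand intervals in this stretch. Those unlisted intervals held 481 and 369 reads in 4T1-U1-ASO, against 4 and 18 reads in 4T1, 21 and 24 reads in 4T07, 19 and 83 reads in 67NR, and 14 and 8 reads in 168FARN. Both U1-block libraries thus lay above all 8 others. Their lists also held more peaks in all, 100236 and 98270, against 54210 to 85229 in the other lists that hold all autosomes. Whether the excess in this stretch goes beyond that was not tested. The interval with the most reads over both U1-block libraries, 16966204 to 16966325, had 120 and 142 reads in 4T1-U1-ASO and no listed peak in any other library. The interval from 16968338 to 16968585 had 36 and 33 reads in 4T1-U1-ASO, none in 4T1, and otherwise only 4 reads in 168FARN replicate 1. The interval from 16977852 to 16978131 had 65 and 82 reads in 4T1-U1-ASO, against 0 and 12 in 4T1, and was also present in every 4T07, 67NR and 168FARN library, at 4 to 29 reads. The interval from 16975382 to 16975576 was not shared by the replicates, with 125 reads in 4T1-U1-ASO replicate 1 and none in replicate 2. These 4 intervals were chosen after their values were seen.

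Sites 2 and 3 and the unlisted intervals together gave 470 and 377 RPM in 4T1-U1-ASO, against 10.9 and 19.1 in 4T1. A peak missing from a list counts as 0 here, so these sums depend on which peaks were listed. Of all reads from site 1 to the last exon, site 1 held 2.39% and 2.56% in 4T1-U1-ASO, against 73.2% and 50.0% in 4T1. The stretch between held 38.4% and 32.5% in 4T1-U1-ASO, against 21.4% and 24.5% in 4T1. The last exon held 59.2% and 64.9% in 4T1-U1-ASO, against 5.36% and 25.5% in 4T1. These shares use the list reads of the last exon, which in every library other than those of 4T1-U1-ASO are fewer than in the tables. For 4T1 there were 3 and 25 reads in the lists, where the table has 16 and 70 reads, and for 4T1-U1-ASO both give 843 and 887. In the U1-block libraries, listed reads downstream of site 1 and at the last exon were both above those of 4T1, while site 1 was at 29.2 and 29.7 RPM in 4T1-U1-ASO, against 37.2 and 38.9 in 4T1. On the opposite strand, within 1500 bp past the end of the last exon, there were 55.0 and 55.1 RPM in 4T1-U1-ASO, against 29.97 and 46.9 in 4T1.

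**Figure D3:**
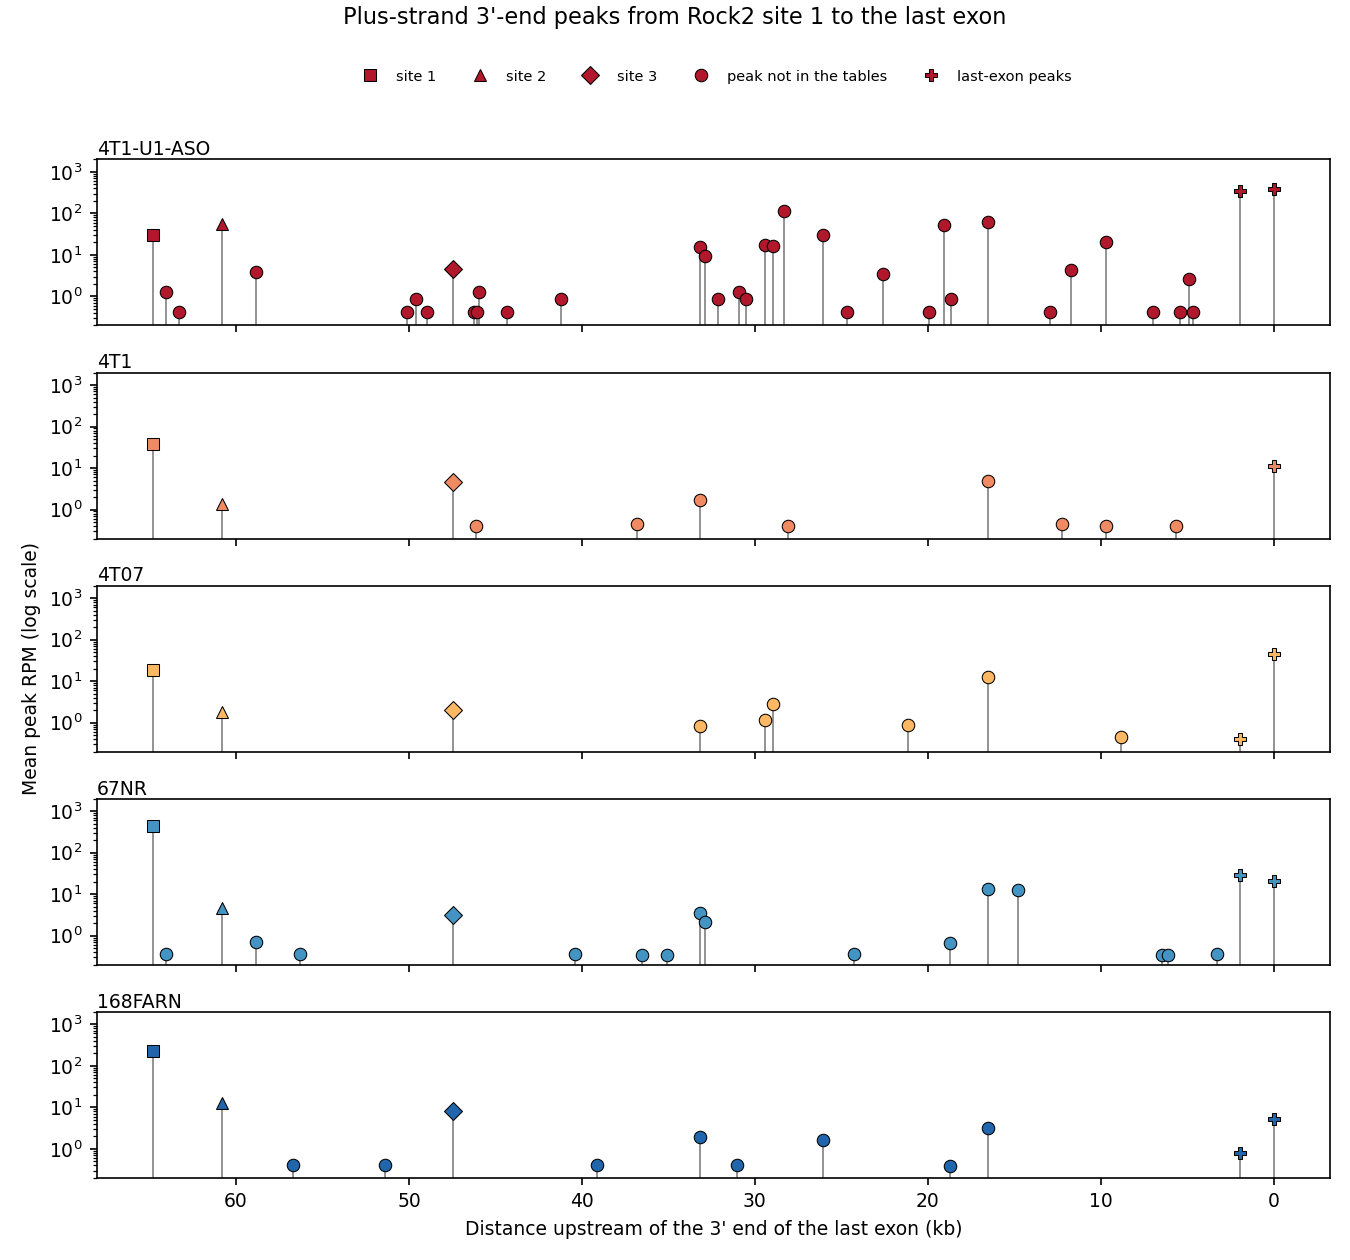
Mean RPM (log scale) of each plus-strand peak from Rock2 site 1 to the last exon, by distance upstream of the last-exon end in kb, with 1 panel per group and 1 symbol per kind of peak. Under the U1 block many peaks not in the tables appear between site 3 and the last exon, while site 1 is near its level in 4T1. In 4T1, 67NR and 168FARN site 1 is the highest peak.

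The same peak lists bear on site 1 itself. Its peak was 44 bp long, with the same first and last base, from 16929810 to 16929853, in 9 of 10 lists. The median length of peaks with at least 30 reads was 352 to 405 bp, and only 1 to 9 of the 4989 to 11549 such peaks in a list were at most 44 bp long. On the 9 chromosomes that all lists share, 7969 merged intervals had a peak in at least 9 lists, of which 25 kept the same ends in at least 9, and 9 of those were at most 44 bp long. Peaks at site 2 were 50 to 91 bp long, with a varying first base and a last base at 16933830 or 16933831. Peaks at site 3 were 48 to 327 bp long and varied at both ends. Where site 1 had a peak, its list reads equalled the reads recovered from the tables. The list of 4T07 replicate 1 has no peak there, although the table gives 28 reads. Whether the sequence at site 1 bears on the fixed length was not tested.

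The metastatic lines were compared with each other, a contrast that no table makes. This comparison reuses the values that brought site 1 into the tables, where it was listed for being low in 4T07 against the non-metastatic lines and high in 4T1 against 4T1-U1-ASO. Both selections favour 4T1 above 4T07, so the fit is given as a description and its p-values are not independent evidence. The ratio of Rock2 site 1 reads to last-exon reads was higher in 4T1 than in 4T07 by 1.49 on the log2 scale (SE 0.45, 95% interval 0.60 to 2.38; edgeR quasi-likelihood test, Benjamini-Hochberg adjusted p = 0.0083). A log2 difference in this ratio is called the usage difference in what follows, and it is not a difference in percent usage. Of the 164 listed sites fitted, 22.0% were called at an adjusted p of 0.05. Both components were then fitted over listed sites. Site 1 reads alone differed by 0.40 (SE 0.40, 95% interval -0.40 to 1.19; edgeR quasi-likelihood test, adjusted p = 0.43), where 40.5% of 74 sites were called. The last exon alone fell by 1.10 in 4T1 (SE 0.37; edgeR quasi-likelihood test, adjusted p = 0.0128), where 48.7% of 156 last exons were called. The call was lost with a library block, which keeps the site and last exon of 1 library together (1.66, edgeR adjusted p = 0.134). It was also lost with TMM scaling (1.12, edgeR adjusted p = 0.0589) and with DESeq2 (1.53, adjusted p = 0.225). TMM here scaled the site and last-exon columns of a library apart, so its scaling does not cancel in the usage difference. The usage difference was 0.86 without 4T1 replicate 1 (edgeR adjusted p = 0.109), 1.14 without 4T07 replicate 1 (edgeR adjusted p = 0.35) and 1.93 without 4T07 replicate 2 (edgeR adjusted p = 0.075), and 2.73 without 4T1 replicate 2, where it was still called. The last-exon difference was -0.47 without 4T1 replicate 1, -0.98 without 4T07 replicate 1 and -1.24 without 4T07 replicate 2, and was not called in any of these, while it was -2.35 and called without 4T1 replicate 2. Last-exon reads for 4T1 came from the U1 table and those for 4T07 from the line tables. For genes that both kinds of table give, the same 4T1 library had equal last-exon reads in 36.8% to 50.0% of genes, with a median difference of at most 0.021 on the log2 scale. Of the 30 genes shared by the U1 table and the table of 4T1 against 67NR, 6.67% differed by over 2-fold in each 4T1 library, and whether Rock2 would be among such genes was not tested.

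From the peak lists, the reads at site 1 were 41 and 49 in 4T1, against 0 and 48 in 4T07. In 1 fit of 26080 merged peaks over the 9 complete lists, the log2 difference was 1.18 (SE 1.34; edgeR quasi-likelihood test, adjusted p = 0.681), where 11.4% of peaks were called. This value depends on the library with no listed peak: it was 0.20 without 4T07 replicate 1 and 8.67 without 4T07 replicate 2, which leaves 4T07 with no listed read and is no measure of size. With the 28 reads that the table gives for that library, the difference was 0.40 as above.

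In the comparison of the non-metastatic lines, no difference in site 1 usage beyond the spread of their libraries was found. Site 1 was listed for being high in both lines against 4T07, so this comparison too was made at a selected site. That selection favours like usage in both lines. The fits of usage and of its parts are therefore a description, and their p-values are not independent evidence. The log2 difference in the ratio of site to last-exon reads, 67NR over 168FARN, was -0.12 (SE 0.40, 95% interval -0.93 to 0.69; edgeR quasi-likelihood test, adjusted p = 0.941), where 20.6% of 102 listed sites were called. It turned to 0.86 without 67NR replicate 2 (edgeR adjusted p = 0.0966). Both parts of the ratio were higher in 67NR. Site 1 reads alone rose by 0.995 in 67NR (SE 0.26; edgeR quasi-likelihood test, adjusted p = 0.0011), where 44.6% of 74 sites were called. Last-exon reads alone rose by 1.12 (SE 0.28; edgeR quasi-likelihood test, adjusted p = 0.00037), where 47.3% of 93 last exons were called. The first was 0.68 without 168FARN replicate 1 (edgeR adjusted p = 0.105). The second was not called without 67NR replicate 2 (0.10), 168FARN replicate 1 (0.996) or 168FARN replicate 2 (1.25), and it was 1.70 and called without 67NR replicate 1, which with 65 reads had the lower last exon of the 67NR pair.

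The listed sites nearest to Rock2 site 1 were sought over the 6 libraries of 4T07, 67NR and 168FARN, by the mean absolute difference in usage among 79 sites with a value in each library. Camk1d, a calcium/calmodulin-dependent kinase, was nearest, at 12.5 percentage points. Its usage was 21.9% ± 0.697 in 4T07, 98.5% ± 2.14 in 67NR and 100% ± 0 in 168FARN (SD, n = 2 each). The Camk1d site had 39 and 36 reads in 4T07, against 32 and 25 in 67NR and 37 and 33 in 168FARN. Its last exon had 135 and 132 reads in 4T07, against 1 and 0 in 67NR and 0 and 0 in 168FARN. The usage was thus alike but the reads behind it were not, since at Rock2 site 1 mainly the site reads differed. The next were 3 sites of Ahnak, a large scaffold protein, at 15.0, 15.1 and 16.4 points, which share 1 last exon, and then Dhx40, a putative RNA helicase, at 17.0 points. All 5 had lower usage in both 4T07 libraries than in any library of the other lines. The gap was narrowest at the third Ahnak site, with 64.6% in 4T07 replicate 2 and 71.8% in 168FARN replicate 1. This likeness is a description over libraries that also placed the sites in the tables.

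**Figure D4:**
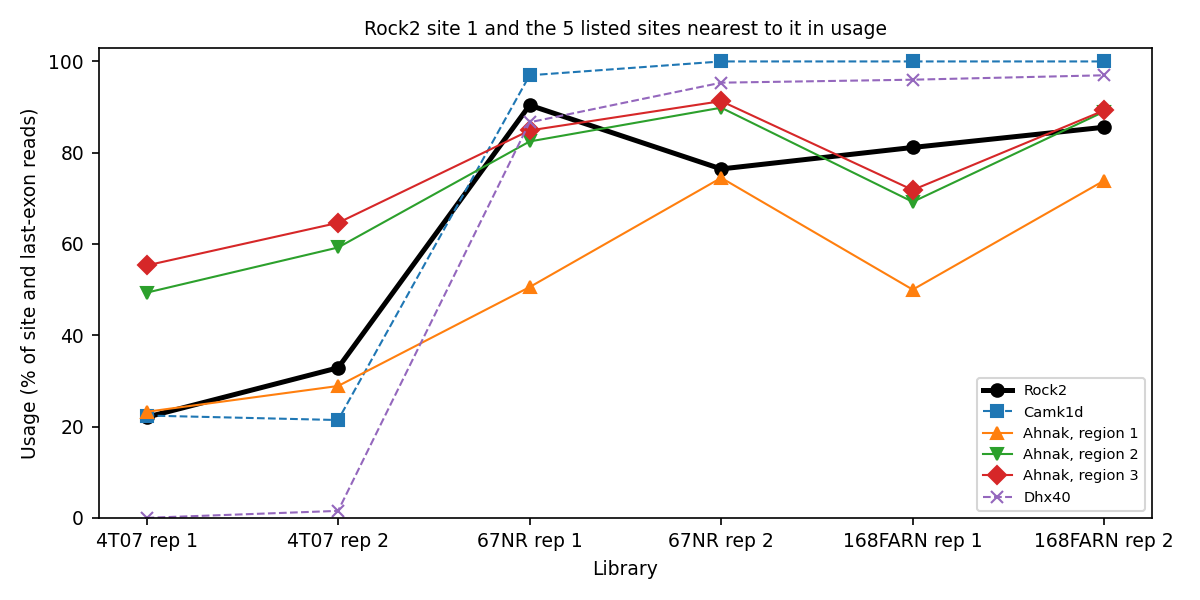
Usage in percent of Rock2 site 1 (black) and of the 5 listed sites nearest to it, in the 6 libraries of 4T07, 67NR and 168FARN. Rock2, Camk1d and Dhx40 are low in the 4T07 libraries and high in the other 4, and the Ahnak sites differ less between the lines.

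The 10 peak lists held 1427728 to 3347776 reads. The list of 67NR replicate 2 lacks 9 autosomes but holds chromosome 12, and RPM values were therefore taken over the 9 chromosomes that all lists share. Between 1.56% and 31.3% of the table sites with at least 20 reads had no peak in the list of the same library, so the absence of site 4 from the lists is not unique to Rock2. Markers of epithelial or mesenchymal cells were not analysed here, since the peak lists name no genes.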

How the data were processed

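Poly(A)+ RNA was fragmented, primed with anchored oligo-dT and sequenced from 1 end, per the labels' protocols. The build mm9 and the tools DESeq2 1.4.5 and Bowtie2 2.2.5 are named in the submitters' processing notes, without their roles. The authors deposited a read count for each peak of each library, and tables with the normalized signal of site and last exon in each library. The same deposited tables carry a log2 change with SE, a test score, and p-values before and after adjustment. The value of 1 read was recovered from each normalized signal column, with 100% of values whole to within 0.1 read. Rock2 and the lists were chosen with earlier results of these data known. Named are all Rock2 sites, the paralog Rock1 and the 5 sites nearest to Rock2 site 1; a further planned gene list is not reported here. Peaks overlapping by 1 bp were merged over libraries. Tests used edgeR 4.0.16 (quasi-likelihood, R 4.3.3, adjusted p under 0.05), with low counts removed by filterByExpr in each main fit. This left different numbers of sites and last exons in their separate fits. Recovered reads took the size factors of the tables, and merged peaks took TMM. DESeq2 1.42.0 was an alternative. On simulated data with a dispersion of 0.05, the 4T1 against 4T07 usage model recovered 50% of changes of 2 log2 units and 60.9% of 3 among 165 sites, with 0 calls among 124 unchanged; that of 67NR against 168FARN recovered 58.3% and 84.6% among 102, with 2 calls among 77; the merged-peak model recovered 11.5% of changes of 1 and 67.4% of 2 among 19799 peaks, with 5 calls among 19635 unchanged. The simulated dispersion was set and not estimated from these libraries, so the recovery and false-call rates do not give those at Rock2. A library block, the separate fits of site and last exon, and site reads from the tables or with 67NR replicate 2 were added after seeing the data. PCR duplicates could not be separated. The exact intervals cover counting error only and take each read as independent, so duplicates would make them too narrow.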

Additional observations from a re-analysis of the deposited data

How the results depend on the processing

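Site 1 usage from peak-list reads averaged 79.7% in 4T1 and 96.8% in 168FARN, also with 50% overlap, and summing all listed Rock2 sites gave 18.1% in 4T1-U1-ASO. Leaving out 1 library, usage ranged from 3.80% to 3.88% in 4T1-U1-ASO, 41.2% to 71.9% in 4T1, 22.0% to 32.9% in 4T07, 76.4% to 90.4% in 67NR and 81.2% to 85.6% in 168FARN. From peak-list reads, usage of sites 2 and 3 in 168FARN was 72.5% and 64.9%, of site 3 in 4T1 40.9%, and of site 4 in 4T1-U1-ASO 0%. Over sites and groups, 30 of 45 usage alternatives, with those just named among the 45, moved by at most 1 SD. The 45 include the deposited normalized values, from which the reads were recovered, so these could hardly move. The 1 bp and 50% overlap rules gave equal values, so each such result counts more than once. The usage difference of 4T1 against 4T07 was 1.12 with TMM on site and last-exon columns apart (edgeR adjusted p = 0.0589). It was 1.53 with DESeq2 (adjusted p = 0.225) and 1.66 with a library block (edgeR adjusted p = 0.134). Without 1 library it was 0.86 to 2.73. With a replicate block it was 1.61 (edgeR adjusted p = 0.0142). That block did not move the 67NR against 168FARN usage test or the peak-list test of site 1 past the threshold. The separate fits of site and last exon were not run with this block. For 67NR against 168FARN the range without 1 library was -0.68 to 0.86. The peak-list difference at site 1 ranged from 0.20 to 8.67 without 1 library and had an adjusted p of 0.0202 without 4T07 replicate 2 (edgeR). Replicate numbers did not pair the libraries of 4T1-U1-ASO, 4T1, 4T07 and 168FARN: deviations correlated at -0.0086 to 0.0428 over 6 pairs of groups. The 67NR libraries were not in this check, since the peak list of replicate 2 is incomplete. Ranked by Pearson r, 1 of the 5 nearest sites was among the top 5. The causes of these changes were not tested.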
